A study of Mus musculus with 105 samples.

Results

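The Obox genes are a mouse family of oocyte-specific homeobox genes, and 5 of them (Obox1, Obox2, Obox3, Obox5 and Obox6) were followed through the 3 deposited tables of this study. They were chosen by name, out of 20756 genes with footprint and mRNA values. Each encodes a homeodomain protein, a transcription factor that binds DNA through a homeodomain. Obox proteins stored by the oocyte or made in the early embryo are known to act redundantly in switching on the embryonic genome, and Obox6 has been linked to reprogramming of somatic cells. Because the messages are made during oocyte growth while transcription is off in the full-grown oocyte, translation and the poly(A) tail are the main known ways in which a stored message is regulated until fertilisation.

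The oocytes came from C57BL/6 females described as 8 or 5 weeks old and given 5 IU of PMSG and hCG, gonadotropins that ripen follicles and trigger ovulation. Ribosome footprints (mRNA fragments shielded by ribosomes, a readout of translation) were measured in 18 single full-grown oocytes and 20 single metaphase II (MII) oocytes. Oocytes at MII from Btg4 heterozygous (Het) and Btg4 knockout (KO) females gave 3 and 3 footprint libraries and 2 and 2 mRNA libraries. Tails were measured in 1 library each of wild-type full-grown, wild-type MII and Het MII oocytes and in 2 of KO MII oocytes. BTG4 is an adaptor that brings the CCR4-NOT deadenylase to maternal mRNA. The sources used here do not say what the mutation removes, how many animals were pooled, or whether libraries of a genotype came from separate females, so a p-value here reflects how far these libraries scatter, and that scatter may be technical. The full-grown tail library carries the label SN and the single full-grown oocytes do not, so they may differ in kind.

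Values are FPKM, fragments scaled to gene length and to the mapped total, so each library is its own reference. The value of 1 read put the depth of the full-grown oocytes at 0.557 to 2.40 times that of full-grown oocyte 1 and that of the MII oocytes at 0.224 to 0.878 times. Summed over 10 oocyte markers, footprints ran from 1435 to 21830 FPKM in full-grown and from 895 to 9766 FPKM in MII oocytes. The sum of 10 follicle cell markers ran from 0 to 90.3 FPKM in full-grown and from 0 to 39.3 FPKM in MII oocytes. It was above 0 in 17 of 18 full-grown and 18 of 20 MII oocytes. At MII, Cyp19a1 was above 0 in 17 of 20 oocytes and Gja1, the next most frequent of the 10 markers, in 5 of 20. Gja1 reached 49.4 FPKM in a full-grown and Cyp19a1 39.3 FPKM in an MII oocyte, and of the 10 markers only Has2 was at 0 in every oocyte. The sum of 7 blood markers reached 561 FPKM in full-grown and 18.5 FPKM in MII oocytes. That sum was above 0 in 12 of 18 full-grown and 5 of 20 MII oocytes. Btg4 itself had 3293 and 4774 FPKM of mRNA in Het and 1754 and 2345 FPKM in KO libraries, a log2 change of -0.97 (SE 0.35, limma adjusted p = 0.0889). Its footprints fell by 2.69 on the log2 scale (SE 0.23, limma adjusted p = 0.00654), from 6134 to 7009 FPKM in Het to 907 to 1148 FPKM in KO.

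The genes lie together on chromosome 7. The RefSeq annotation of GRCm38.p6 lists 6 protein-coding Obox genes there, in the order Obox7, Obox2, Obox1, Obox3, Obox5 and Obox6, among 45 Obox pseudogenes, 38 of them named for Obox4 and 7 for Obox3. RefSeq promoter windows matched 4 of the 5 members. The 120 bases before the annotated start are shown for these to compare the promoters of the copies, with the letters TATATAA in capitals. They are from chr7:15547137-15547256 (plus strand, Obox1), chr7:15388731-15388850 (plus strand, Obox2), chr7:15639778-15639897 (minus strand, Obox3) and chr7:15750250-15750369 (plus strand, Obox5).
Obox1: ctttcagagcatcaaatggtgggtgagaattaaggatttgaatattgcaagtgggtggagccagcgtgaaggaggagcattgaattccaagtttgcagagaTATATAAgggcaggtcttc
Obox2: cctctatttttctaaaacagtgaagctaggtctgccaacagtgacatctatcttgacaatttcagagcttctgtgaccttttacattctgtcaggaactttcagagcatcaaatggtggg
Obox3: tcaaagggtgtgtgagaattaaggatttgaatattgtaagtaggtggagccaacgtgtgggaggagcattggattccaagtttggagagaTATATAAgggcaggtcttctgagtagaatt
Obox5: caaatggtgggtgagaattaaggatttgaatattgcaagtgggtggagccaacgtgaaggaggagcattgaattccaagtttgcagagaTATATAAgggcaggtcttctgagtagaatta

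The letters TATATAA, searched on both strands of the 250 bases before the start, occurred in the windows of Obox1, Obox3 and Obox5 and in 3.04% of 32851 promoters. They began 19, 30 and 31 bases before the annotated start. In the whole RefSeq windows of 300 bases, which run past the start, they also occurred for Obox7, and in 3.24% of promoters. Compared over these whole windows, those of Obox1 and Obox2 are offset by 97 bases and are the same at all 203 bases of their overlap. This overlap ends before the TATATAA of Obox1, so the matching stretch of Obox2 lay outside the bases searched. The Obox1 and Obox3 windows matched at 63.7% of 289 overlapping bases, and Obox1 and Obox5 windows at 78.1% of 288, without gaps.

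Similar gene copies can share reads. The likeness above is of promoter windows, and the transcripts that give the reads were not compared. Where whole reads were counted, low values of a gene are whole multiples of the value of 1 read. That value was taken as the gene's lowest, scaled for depth, and 76.4% of low values over all genes were whole (below 12 times it, tolerance 0.03). Of 40 low values of members 6 were whole (15%): 3 of 15 for Obox1, 1 of 11 for Obox3, 0 of 7 for Obox5 and 2 of 7 for Obox6. A lowest value of several reads makes whole counts look not whole. Obox1 was above 0 in all 38 single oocytes, so its 15 values may be of this kind. Obox7, whose window matched that of Obox1 at 93.7% of bases, had 3 of 4 whole. Btg4 had 7 of 7 whole and Nobox, an oocyte homeobox gene, 15 of 16. How reads were assigned among copies was not tested, and the level of each single Obox member is uncertain to that extent. Obox2 was listed at 0 in all 38 single oocytes and in all 10 Btg4 libraries, yet it had a tail value in 2 libraries.

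Obox1, a homeodomain gene stored by the oocyte and the member with the highest footprint FPKM, had 8.29 to 199.9 FPKM of footprints in full-grown oocytes (median 20.8, 18 oocytes) and 1129 to 7167 FPKM in MII oocytes (median 3465, 20 oocytes). The lowest MII oocyte lay above the highest full-grown oocyte. On the log2(mean FPKM + 1) scale Obox1 was 6.53 higher at MII. The oocytes of a stage count as 1 sample because the labels name no females, so stages are described without a test.

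Obox5, a close relative stored in the oocyte, had 0 to 85.4 FPKM in full-grown oocytes (median 7.04) and 353 to 2603 FPKM at MII (median 1565), a log2 ratio of 6.42. Obox3, known as a member made mainly by the early embryo, had 0 to 10.5 FPKM in full-grown oocytes (median 1.27) and 74.6 to 381 FPKM at MII (median 250.4), a log2 ratio of 6.22. Of the 4 members with any footprints Obox6 was lowest. It was above 0 in 6 of 18 full-grown oocytes, at up to 2.32 FPKM, and in all 20 MII oocytes, at 3.39 to 47.4 FPKM (median 21.5), a log2 ratio of 4.24. In each of these 3 genes, too, the stages did not overlap.

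So 4 of the 5 members lay past a log2 ratio of 1 at MII, where 27.9% of 8788 genes that averaged 1 FPKM or more did and the median gene stood at -0.15. Every MII oocyte above every full-grown oocyte was seen for the same 4 members and for 2.18% of the 8788 genes. Obox1, Obox3 and Obox5 ranked at the 99.8th, 99.7th and 99.7th percentile of the ratio and Obox6 at the 97.9th. Obox6 averaged 0.35 FPKM in full-grown and 24.5 FPKM in MII oocytes, so it passed the filter of 1 FPKM only through MII. Its place in these counts and percentiles follows in part from that filter. Obox7, the neighbouring family gene, went from 0 to 172.6 FPKM in full-grown oocytes to 288 to 2342 FPKM at MII, a log2 ratio of 5.31. Without the oocytes that listed a hemoglobin gene (9 full-grown and 19 MII kept) the ratios of Obox1, Obox3, Obox5 and Obox6 were 6.94, 6.20, 6.51 and 4.03. Scaling each oocyte to its median gene gave 5.23, 5.05, 5.26 and 3.39, while the median gene moved to -1.06. The median over oocytes in place of the mean gave 7.31, 6.79, 7.61 and 4.49.

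**Figure D1:**
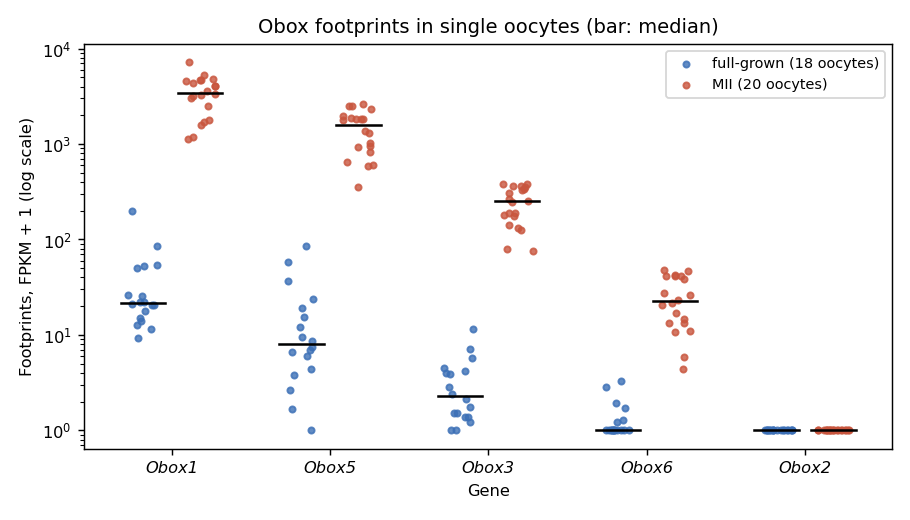
Footprints of the 5 members in single oocytes, as FPKM + 1 on a log axis, with 1 point per oocyte and a bar at the median of 18 full-grown and 20 MII oocytes. The stages do not overlap for Obox1, Obox5, Obox3 and Obox6, and Obox2 lies at 0 FPKM throughout.

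Within an MII oocyte the members kept an order in FPKM, which are per length of the gene. Obox1 lay above Obox5 in 20 of 20 MII oocytes, by 1.54 to 3.39 times (median 2.58), and Obox3 above Obox6 in 20 of 20, by 4.61 to 37.0 times (median 10.2). Obox5 lay above Obox7 in 17 of 20, so these neighbours in the order were not separated in every oocyte, whereas Obox7 lay above Obox3 in 20 of 20. In full-grown oocytes Obox5 was above Obox7 in only 5 of 18.

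The members also varied together between MII oocytes. Oocytes 4, 13, 14 and 15 held the 4 lowest values of Obox1, of Obox3 and of Obox5, and oocyte 11 was highest for Obox1 at 7167 FPKM. Oocytes 13, 14 and 15 also listed few genes at 1 FPKM or more (3932, 4025 and 3720), whereas oocyte 4 listed 6051. Oocyte 16, which listed 3645, was 5th lowest for Obox1 and Obox3. Spearman's rho over 20 MII oocytes was 0.901 for Obox1 with Obox3, 0.847 for Obox1 with Obox5, 0.856 for Obox5 with Obox3 and 0.666 for Obox1 with Obox6. These points share a library and its depth, and the copies may share reads. Whether genes outside the family vary alike over these oocytes was not tested. Over the 18 full-grown oocytes the same pairs had rho of 0.761, 0.684, 0.549 and 0.264. The coefficient of variation at MII was 0.445 for Obox1, 0.429 for Obox3 and 0.483 for Obox5, against a median of 0.558 over 499 genes that averaged 100 FPKM or more at MII.

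**Figure D2:**
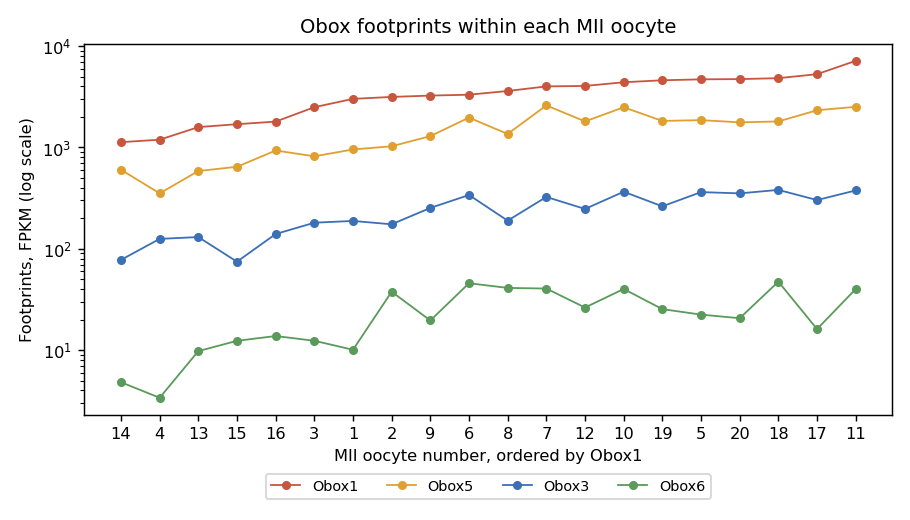
Footprints of 4 members in each of the 20 MII oocytes, as FPKM on a log axis, with oocytes ordered by Obox1 from 1129 to 7167 FPKM. Obox1 lies above Obox5, Obox5 above Obox3 and Obox3 above Obox6 in every oocyte, and oocytes 14, 4, 13 and 15 are low for the first 3 genes.

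In Btg4 Het MII oocytes footprints and mRNA gave different orders in libraries 1 and 3 and not in library 2. Obox5 had the most mRNA, 2162 and 2423 FPKM, and Obox1 had 991 and 503 FPKM. Obox3 had 0.51 and 0.56 FPKM and Obox6 0.18 and 0 FPKM of mRNA. In footprint libraries 1 and 3 Obox1 had 8422 and 6209 FPKM, Obox5 4493 and 3324 FPKM, Obox3 718 and 538 FPKM and Obox6 37.3 and 58.6 FPKM. In footprint library 2 Obox5 led with 940 FPKM, Obox1 had 42.2 FPKM, and Obox3 and Obox6 were listed at 0.

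On the log2 scale, Het footprints per mRNA (means + 1) stood at 2.71 for Obox1 and at 0.35 for Obox5, against a median of 0.37 over 6564 genes that averaged 1 FPKM or more in both assays. Obox1 was at the 92.9th percentile and Obox5 at the 49.3rd. Leaving out Het footprint library 1 gave Obox1 2.06 and leaving out library 2 gave 3.29. The values for Obox3 and Obox6 were 8.09 and 4.92, but their mRNA mean was below 1 FPKM and they are not among the 6564. In Het oocytes 40 of the 1144 genes with a footprint mean of at least 100 FPKM had an mRNA mean below 1 FPKM, Obox3 among them. Counting Obox3 and Obox6 against a median that they do not enter, 3 of the 5 members lay above it. A median splits the 6564 genes evenly, so this count is near the share over all genes. Without Het footprint library 2 the count was 4, with Obox5 at 0.77, and without Het mRNA library 2 it was 4, with Obox5 at 0.43. Without Het footprint library 1 Obox5 stood at -0.11.

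**Figure D3:**
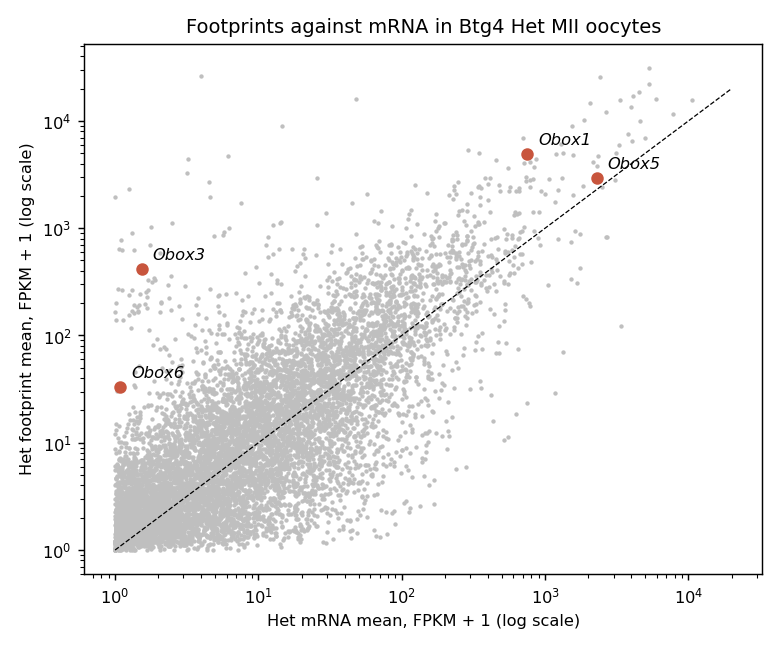
Mean footprints against mean mRNA in Btg4 Het MII oocytes, as FPKM + 1 on log axes, with 1 grey point per gene above 0 in both, the members in red and equal values on the dashed line. Obox5 lies near the line, Obox1 above it, and Obox3 and Obox6 at the left edge, with mRNA means of 0.54 and 0.089 FPKM.

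In Btg4 KO oocytes the mRNA of Obox5 fell. It measured 2162 and 2423 FPKM in Het and 1062 and 1202 FPKM in KO libraries, and both KO libraries lay below both Het libraries. The log2 change was -1.02 (SE 0.30, limma adjusted p = 0.0473). Obox1 measured 991 and 503 FPKM in Het and 358 and 481 FPKM in KO, also without overlap but with Het library 2 close to KO library 2, and a log2 change of -0.77 (SE 0.38, limma adjusted p = 0.2).

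Thus 1 of the 2 members tested was called lower, where 0.62% of 8865 genes were called lower and 18.9% higher, and the median gene changed by 0.14. KO libraries below Het libraries were seen for both members and for 22% of genes. Scaling to the median gene, which moved the median change to -0.21 and the calls from 1677 higher and 55 lower to 1039 and 656, gave Obox5 -1.47 (limma adjusted p = 0.065). The call was also lost without Het mRNA library 2 (-0.94, limma adjusted p = 0.0888), KO library 1 (-0.93, limma adjusted p = 0.347) or KO library 2 (-1.11, limma adjusted p = 0.248). Obox1 stood at -1.25 without Het library 2 (limma adjusted p = 0.0187). These fits hold 1 library of a genotype, which is assumed to vary like the pair of the other. Obox3, at 0.51 and 0.56 FPKM in Het and 1.49 and 1.08 FPKM in KO, and Obox6, at up to 0.34 FPKM, were under the mean of 1 FPKM needed for the test, and Obox2 was listed at 0. Fewer messages per oocyte and a larger total of other messages cannot be told apart in FPKM.

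The footprints of the family did not pass the test in KO oocytes. Library 2 of both genotypes stood apart from the others. Obox1 had 8422, 42.2 and 6209 FPKM in Het libraries 1, 2 and 3 and 4252, 762 and 4792 FPKM in KO libraries 1, 2 and 3. Obox3 had 718, 0 and 538 FPKM in Het and 458, 0 and 463 FPKM in KO. Obox6 had 37.3, 0 and 58.6 FPKM in Het and 38.1, 0 and 52.8 FPKM in KO. Obox5 had 4493, 940 and 3324 FPKM in Het and 3121, 1298 and 3066 FPKM in KO. Each gene was lowest in library 2 of both genotypes.

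Both libraries numbered 2 listed 123 genes at 0 that had over 10 FPKM in the other 4, among them Obox3, Obox6 and 31 genes with names starting in Hist, whereas this was so of 1 gene for libraries 1 and 10 for libraries 3. The part of this gap in the Obox values was not tested. Of the 4 members tested, 0 were called, where 3.54% of 8526 genes were, and 0 had an unadjusted p under 0.05. Over all genes, too, limma called 0 without any one of KO libraries 1, 2 and 3, and 0 without both libraries numbered 2. The log2 changes were 0.93 for Obox1 (SE 1.99, limma adjusted p = 0.847), -0.29 for Obox3 (SE 3.26, limma adjusted p = 0.981), -0.06 for Obox5 (SE 0.65, limma adjusted p = 0.981) and -0.04 for Obox6 (SE 2.04, limma adjusted p = 0.995). Without both libraries numbered 2, a choice made after seeing the data, they were -0.68 for Obox1 (SE 0.29, limma adjusted p = 0.375), -0.43 for Obox3, -0.32 for Obox5 and -0.06 for Obox6. For Obox1 that reverses the sign.

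**Figure D4:**
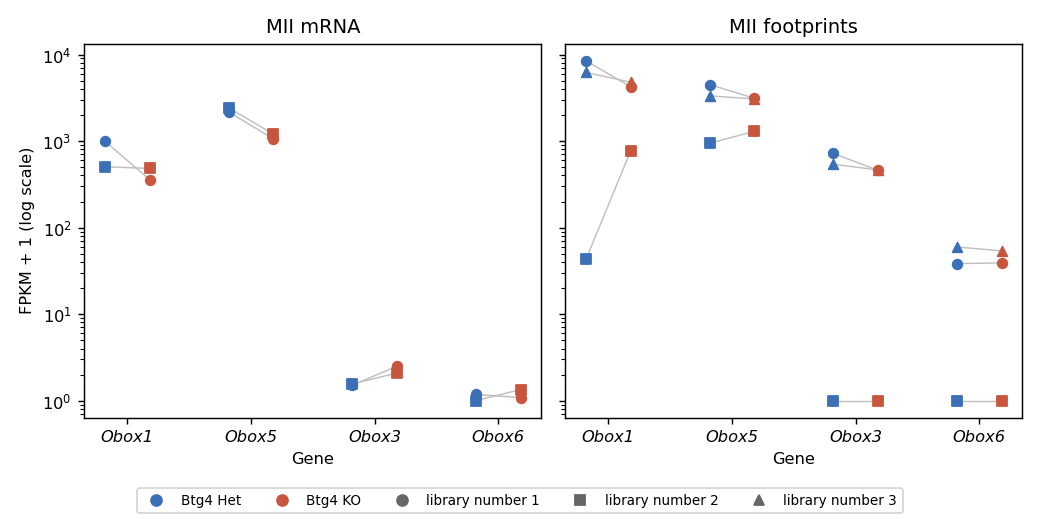
Obox mRNA (left) and footprints (right) in Btg4 Het and KO MII oocytes, as FPKM + 1 on a log axis, with 1 point per library, its shape giving the library number and grey lines joining equal numbers. Obox5 mRNA is lower in both KO libraries, and footprint libraries 2 lie below libraries 1 and 3 for every gene shown.

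Footprints per mRNA could be tested for Obox1 and Obox5. The KO effect was 1.69 for Obox1 (SE 2.80, limma adjusted p = 0.861) and 0.96 for Obox5 (SE 0.91, limma adjusted p = 0.723), on the log2 scale. Of these 2 members 0 were called, where 1.3% of 7382 genes were, and 0 had an unadjusted p under 0.05. Without both footprint libraries numbered 2 Obox1 stood at 0.09.

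Tail lengths were short in the full-grown library for every member that had one. Obox1 had 35.4 nt, Obox2 34.5 nt and Obox5 41.85 nt there, against a median of 54.1 nt over 6353 genes, which put them at the 6.42nd, 5.4th and 16.7th percentile. In the Het MII library Obox1 had 81.0 nt, Obox2 132.8 nt and Obox5 168 nt, against a median of 73.4 nt over 598 genes. All 3 were longer than in the full-grown library, by 45.55, 98.3 and 126 nt, where 71% of 580 genes with both values were longer and the median difference was 20.45 nt.

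The wild-type MII library gave a value for Obox1 alone, 65.1 nt, which is 29.7 nt longer than in the full-grown library. There 42% of 224 genes were longer, with a median difference of -7.58 nt. In the KO MII libraries Obox1 had 151.5 nt in library 2 and no value in library 1. That is 70.5 nt longer than in Het, where 38.4% of 396 genes were longer and the median difference was -7.73 nt. No member had a value in Het and both KO libraries, so none of the 272 genes tested was a member. In those 272 genes limma called 0, with 65 at an unadjusted p under 0.05. Each tail value comes from 1 library of unknown depth and has no replicate check. In the authors' deposited table the merged wild-type and Het column gives Obox1 73.7 nt, Obox2 119.3 nt and Obox5 120.6 nt. Obox3 had no tail value in any library and Obox6 was not found among the tail table's names.

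**Figure D5:**
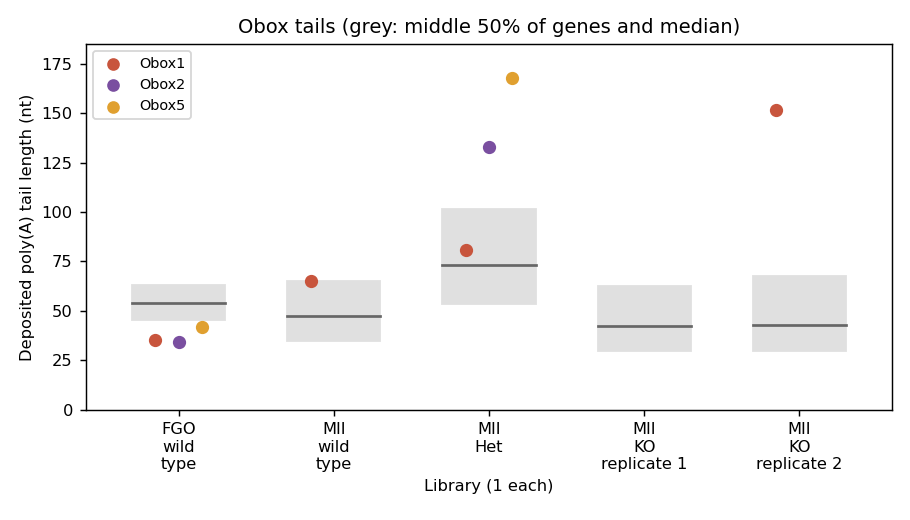
Deposited poly(A) tail lengths in nt of Obox1, Obox2 and Obox5 in the 5 tail libraries, with the middle 50% of genes in each library as a grey box and the library median as a line. The 3 genes lie below the box in the full-grown library, and Obox2 and Obox5 lie above it in the Het MII library.

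Genes with levels most like each member were sought over 6 group means (full-grown, MII, Het and KO footprints, Het and KO mRNA), by the root mean square difference of log2(mean FPKM + 1) among 12136 genes. Nearest to Obox5 were Ccnb1, which encodes cyclin B1 of the meiotic divisions, at 0.33, Rbbp7, a histone-binding protein, at 0.43 and Hpf1, a cofactor of PARP enzymes, at 0.63. Nearest to Obox1 were Gm1070 at 0.64, D6Ertd527e at 0.78 and Plat, tissue plasminogen activator, at 0.89. For Obox3 they were AA414768 at 0.55, Cks1brt at 1.01 and the histone gene Hist2h2ab at 1.11, and for Obox6 Kifc5b at 0.75, Prr23a2 at 0.78 and D1Pas1 at 0.80.

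Other homeobox genes gave a background. Of 40 listed, 36 were in the tables and 16 averaged 1 FPKM or more over the single oocytes. In these, 1 (Obox7) was past a log2 ratio of 1 at MII and 7 were past -1, where 27.9% and 31.3% of all 8788 genes were, with a median of -0.54. Nobox, which drives oocyte gene expression during growth, stood at -2.02, Lhx8, another early oocyte regulator, at -2.17 and Sebox at -2.38. In KO oocytes 2 of 16 tested rose in mRNA and 0 fell, beside 18.9% and 0.62% of all genes. Nobox mRNA rose by 2.80 (SE 0.29, limma adjusted p = 0.000873) and Lhx8 by 1.79 (SE 0.41, limma adjusted p = 0.0183) on the log2 scale. Footprints of neither were called, at -0.47 for Nobox (SE 0.65, limma adjusted p = 0.748) and 0.35 for Lhx8 (SE 1.26, limma adjusted p = 0.917). In footprints 2 of 16 rose, Meis2 by 3.35 (SE 0.52, limma adjusted p = 0.0254) and Satb1 by 5.44 (SE 0.82, limma adjusted p = 0.0234), and 0 fell, where 3.21% of all genes rose. Both calls were lost when any 1 KO footprint library was left out. In footprints per mRNA the same 2 genes were called higher, of 14 tested, where 1.3% of 7382 genes were called. Meis2 stood at 3.68 (SE 0.64, limma adjusted p = 0.04) and Satb1 at 6.23 (SE 1.11, limma adjusted p = 0.0418). The list's median mRNA change was -0.29 and that of all genes 0.14.

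Of 34 genes listed for a link to genome activation, 22 averaged 1 FPKM or more in single oocytes. In these 7 were past a log2 ratio of 1 at MII and 6 past -1, shares near the 27.9% and 31.3% of all genes, with a median of 0.30. The highest were Nfya, a subunit of the NF-Y factor, at 4.31 and Lin28a, an RNA-binding protein, at 3.74, and the lowest were Dppa4 at -2.59 and Arg2 at -2.24. In KO oocytes 2 of 23 tested rose in mRNA and 1 fell, beside 18.9% and 0.62% of all 8865 genes tested. Arg2 rose by 3.54 (SE 0.31, limma adjusted p = 0.000562), Dppa2 rose by 1.27 (SE 0.31, limma adjusted p = 0.0232) and Nfya fell by 1.05 (SE 0.30, limma adjusted p = 0.0431), on the log2 scale. Arg2 footprints did not rise with its mRNA, at -1.90 (SE 0.58, limma adjusted p = 0.141). Its footprints per mRNA stood at -5.44 (SE 0.74, limma adjusted p = 0.0169). That was the 1 call among 20 list genes tested for footprints per mRNA, where 1.3% of 7382 genes were called.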

How the data were processed

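The authors deposited FPKM for footprints and for mRNA. The submitters' processing notes name Cufflinks 2.2.1, STAR 2.5.3a, Bowtie2 2.2.2, Trim Galore 0.4.2 and cutadapt 1.14, and the builds mm9 and hg19, without saying what each was used for. The authors also deposited tail lengths in nt, a score per gene with 0 for no value. The sources used here name no tail caller, no minimum of reads and no rule for reads shared by copies. Of 105 samples 53 had a column, and the other 52 were not analysed here. Exact repeats (231 rows, 1 of the 2 Obox2 rows among them) were dropped from the Btg4 table.

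For KO against Het, limma 3.58.1 (R 4.3.3) was fitted to log2(FPKM + 1) of all genes averaging 1 FPKM or more. Tests were two-sided, and calls needed a Benjamini-Hochberg adjusted p below 0.05. Fold changes on this scale understate the change of low genes. For footprints per mRNA the tested term was genotype by assay. Single oocytes were described without a test. Deviations from the group mean correlated between footprint libraries with the same number at 0.255, 0.422 and 0.162, and the labels do not say what a number shares. The main fits held no replicate block and so ignore this likeness, and a replicate block was run as an alternative. Members, gene lists and tests were chosen with earlier results of these data known. Named genes are the members, Btg4, list genes that passed a test or the fold, and the 3 genes most like each member. Other scalings, filters, pseudocounts and left-out libraries were tried. Other steps ran in Python 3.11.15 with pandas 2.3.3, numpy 2.4.6 and matplotlib 3.10.9.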

Additional observations from a re-analysis of the deposited data

How the results depend on the processing

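The count of 4 members past the fold in single MII oocytes was the same under every alternative run. The count in footprints and in footprints per mRNA was 0 throughout, which says nothing of stability where limma called no gene at all: footprints without any 1 KO footprint library or without both numbered 2, and footprints per mRNA without any 1 mRNA library. The mRNA count of 1 (Obox5) was 0 with no filter and 0 with median scaling, and it ranged from 0 to 1 when single libraries were left out. With no filter Obox5 had a limma adjusted p of 0.15, with more genes tested (15509), and 5 genes were called lower against 55. Footprint changes of members, none of them called, changed sign. Quantile normalization gave Obox5 0.10. Leaving out single footprint libraries gave Obox1 -1.53 to 2.27, Obox3 -3.38 to 2.66, Obox5 -0.74 to 0.39 and Obox6 -1.90 to 1.80, and leaving out both numbered 2 gave Obox1 -0.68. For the KO effect on footprints per mRNA, leaving out single libraries gave Obox1 -0.77 (without Het footprint library 2) to 3.04. Het footprints per mRNA of Obox5 ranged from -0.11 (without Het footprint library 1) to 0.77. Apart from the left-out libraries themselves, the cause was not tested. No member entered the tail test, so its count of members with a longer KO tail could only be 0. Without KO library 1, which has no Obox1 value, Obox1 was longer in KO as a value, without a test.

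With the replicate block the count of mRNA calls was 1, with Obox5 at an adjusted p of 0.00584 by limma and 3033 genes higher and 1553 lower. The block rests on 2 pairs there, too few for the pairing to be judged from the data, although deviations of same-numbered mRNA libraries correlated at 0.627 over genes. In footprints and in footprints per mRNA the replicate block gave 0 members called, and it changed no member's call. For footprints the block put the SE at 0.98 for Obox1, 0.33 for Obox3, 0.26 for Obox5 and 0.49 for Obox6, with the log2 changes unmoved. Their limma adjusted p values with the block were 0.603, 0.638, 0.915 and 0.973. How deeply the mRNA and tail libraries were sequenced is unknown, which limits the mRNA values of Obox3 and Obox6 near 0.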
